A study of Mus musculus with 6 samples.

Results

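The PGC-1 coactivators and the nuclear factors that work with them were examined in the gastrocnemius of mice with cancer cachexia. The 10 genes were Ppargc1a, Ppargc1b, Perm1, Esrra, Esrrg, Ppara, Ppard, Nrf1, Tfam and Rxrg. They were chosen by name as regulators of oxidative metabolism, and all 10 were among the 13363 genes of the deposited table, which lists genes above 0 in every muscle. RNA sequencing libraries came from 3 tumour-bearing C26 mice and 3 control mice, 1 library for each. All were male BALB/c mice, 6 weeks old at purchase. C26 mice received 500000 cells of the C26 colon adenocarcinoma line under the skin of the right flank, and control mice were not inoculated. The model is therefore 1 tumour line in 1 strain and 1 sex, and the labels do not tie the replicate numbers of the groups to a shared cage or day.

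PGC-1 proteins do not bind DNA. They are recruited by transcription factors and raise the transcription of genes for mitochondria and fuel oxidation. In skeletal muscle, PGC-1α (Ppargc1a) rises with exercise, cold and fasting, and works with the estrogen-related receptors on the citric acid cycle and the respiratory chain. With the PPARs, which bind DNA as a pair with an RXR receptor, it acts on fatty acid use. Nuclear respiratory factor 1 (NRF1) acts with it on TFAM, the factor that packages and transcribes mitochondrial DNA.

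Of the 10 genes, 3 were upregulated in C26 muscle (Ppargc1a, Nrf1 and Ppard), 2 were downregulated (Rxrg and Ppargc1b) and 5 did not pass the test (limma, Benjamini-Hochberg adjusted p under 0.05 over all 13363 genes). In the same fit 19.4% of all genes were called higher and 14.5% lower in C26 muscle. The 5 genes called were also the 5 whose values did not overlap between the groups, either as FPKM or as log2(TPM + 1), the scale of the test. On that scale 27.0% of all genes had every C26 value above every control value and 26.5% had the reverse. Change was thus frequent in this muscle, and 3 and 2 of 10 genes are to be read against these shares.

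**Figure D1:**
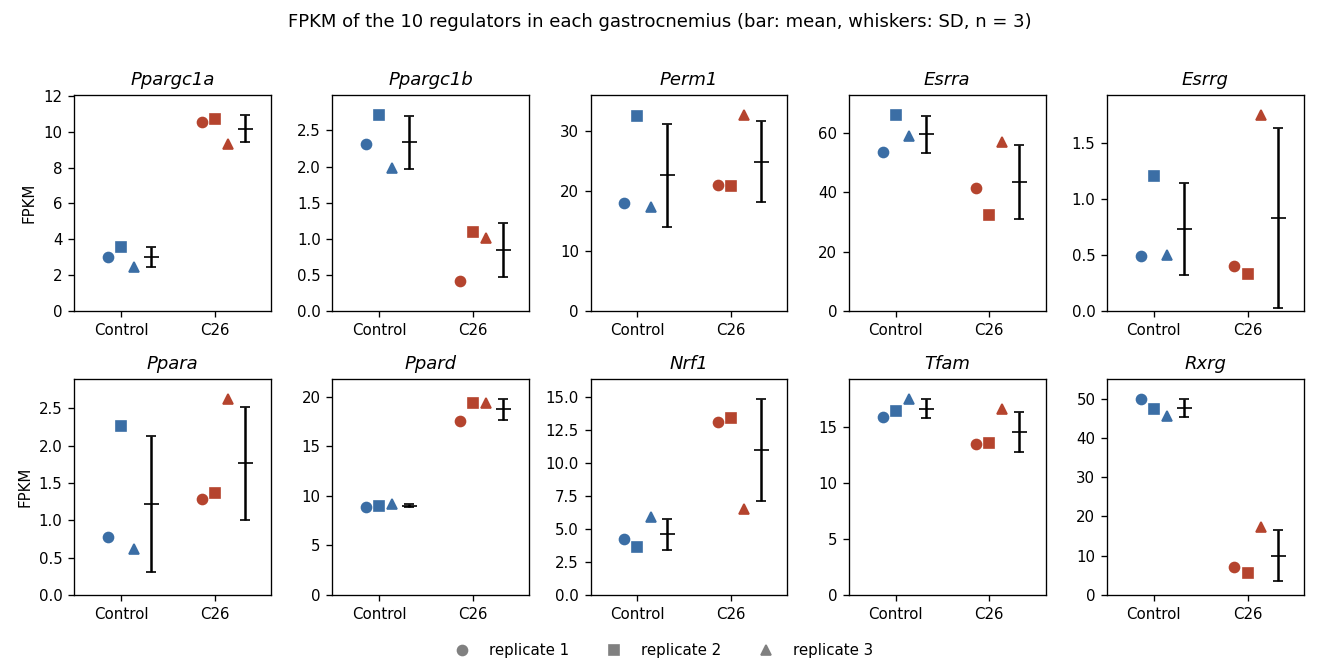
FPKM of the 10 regulators in every muscle, with control muscles in blue and C26 muscles in red. The symbol gives the replicate number, and the bar and whiskers give the mean and SD of 3 muscles. Ppargc1a, Ppard and Nrf1 were higher in each C26 muscle than in each control muscle, and Ppargc1b and Rxrg were lower.

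The labelled tissue was checked against marker genes first, since the extraction text of the labels describes gastrocnemius and then names an infected culture of another cell type. Skeletal muscle genes were abundant in all 6 libraries, with a summed FPKM of 12 markers of 71024 to 100815 in C26 and 143466 to 154698 in control muscle. Of these 12, 1 was upregulated and 3 were downregulated. Fat cell markers moved with the groups: 6 of 9 were downregulated, none was upregulated, their median log2 fold change was -3.69, and their summed FPKM was 261 to 397 in C26 and 550 to 4212 in control muscle, with control replicate 3 lowest among the controls. In C26 muscle the defining fat genes Adipoq, Plin1 and Lep were at or below 3.11, 0.36 and 0.09 FPKM. Fibroblast markers were downregulated in 5 of 8 (summed FPKM 166 to 223 against 371 to 504) and endothelial markers in 2 of 8 (57.8 to 66.8 against 72.9 to 109). Of 8 macrophage markers none was called by limma (52.9 to 314 against 58.0 to 243), with 2 higher and 1 lower at an unadjusted p under 0.05. Neither of the 2 brown fat markers listed was called (0.39 to 1.32 against 2.15 to 31.4), with 1 lower at an unadjusted p under 0.05. The part of these other cells in the changes below was not tested.

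Ppargc1a (Entrez gene 19017), which encodes PGC-1α, had 10.5, 10.7 and 9.29 FPKM in C26 replicates 1 to 3 and 3.02, 3.55 and 2.47 FPKM in the controls. The groups were far apart, and the spread within each was small, with 10.2 ± 0.775 against 3.01 ± 0.540 FPKM (SD, n = 3). It was upregulated 3.42-fold, a log2 fold change of 1.77 (SE 0.18, 95% CI 1.33 to 2.21, adjusted p = 0.00282). The call held with each muscle left out (log2 fold changes 1.63 to 1.94). Its mean level passed from the 38.3 percentile of listed genes in control muscle to the 67.4 percentile in C26 muscle. Muscle tissue and not sorted cells was sequenced, so that a change in the number of cells of a type and a change in RNA per cell cannot be told apart.

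The region upstream of the start of Ppargc1a is shown because this gene rose and because CREB with its CRTC coactivators is a known route to its transcription. The 250 bases before the RefSeq start (GRCm38.p6, chr5:51567726-51567975, minus strand) are printed with a CRE half-site in capitals, which is the motif TGACG read on the opposite strand:
Ppargc1a: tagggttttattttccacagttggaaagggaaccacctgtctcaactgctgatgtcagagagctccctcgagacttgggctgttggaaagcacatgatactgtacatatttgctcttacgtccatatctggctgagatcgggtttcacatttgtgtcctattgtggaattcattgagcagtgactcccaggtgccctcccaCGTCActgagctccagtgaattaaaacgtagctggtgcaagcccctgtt
The match lies 49 bases before the start. The letters TGACG, searched on both strands, are present in 17.8% of 32851 upstream windows of the same length, so that a match describes the sequence and is no evidence of binding. Of 14 starts of the regulators searched, 2 held it, those of Ppargc1a and Ppara, and Ppara was not called.

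Ppargc1b (Entrez gene 170826), which encodes the related coactivator PGC-1β, moved the other way. It had 0.42, 1.1 and 1.01 FPKM in C26 muscle and 2.31, 2.72 and 1.98 FPKM in control muscle, means of 0.843 ± 0.369 and 2.34 ± 0.371 FPKM (SD, n = 3). The groups did not overlap, although all values were low. It was downregulated with a log2 fold change of -0.91 (SE 0.26, 95% CI -1.52 to -0.29, adjusted p = 0.0362), and 1 added to each TPM before the log understates the change of so low a gene. This call was not firm. It was lost without C26 replicate 1 (adjusted p = 0.0904), C26 replicate 2 (0.0623), control replicate 1 (0.0984) or control replicate 2 (0.0964), and after quantile normalization (log2 fold change -0.55, adjusted p = 0.182).

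Perm1 (Entrez gene 74183), a muscle protein induced by PGC-1 and ERR that acts on oxidative genes, had 21.1, 20.9 and 32.8 FPKM in C26 muscle and 18.0, 32.5 and 17.4 FPKM in control muscle. One muscle of each group stood above the other two, and the groups overlapped. Its log2 fold change was 0.37 (SE 0.36, 95% CI -0.48 to 1.23, adjusted p = 0.439), an interval that leaves room for a more than 2-fold rise.

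Within each muscle, PGC-1β was set against PGC-1α as a log2 ratio of FPKM, which does not depend on the scaling of the library. The ratio Ppargc1b over Ppargc1a was -0.39, -0.38 and -0.32 in control muscle, a mean of -0.36 ± 0.04 (SD, n = 3), so that both coactivators had like levels there. In C26 muscle it was -4.65, -3.28 and -3.20, a mean of -3.71 ± 0.81. With Ppargc1a above and Ppargc1b below every control value in each C26 muscle, the ratio had to separate the groups. The difference was -3.35, and the groups did not overlap (two-sided exact permutation test, p = 0.1, the smallest that 3 against 3 samples allow; adjusted p = 0.15 over 6 ratios). Perm1 over Ppargc1a was 1.0, 0.96 and 1.82 in C26 and 2.58, 3.20 and 2.81 in control muscle, again without overlap, with a difference of -1.60 (exact p = 0.1, adjusted p = 0.15).

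The estrogen-related receptors, orphan nuclear receptors through which PGC-1 proteins act on mitochondrial genes, did not pass the test. Esrra (Entrez gene 26379), encoding ERRα, had 41.6, 32.2 and 56.8 FPKM in C26 muscle and 53.7, 66.2 and 58.8 FPKM in control muscle. Only C26 replicate 3 reached the control range. Its log2 fold change was -0.27 (SE 0.27, 95% CI -0.91 to 0.38, adjusted p = 0.467). Esrrg (Entrez gene 26381), encoding ERRγ, which is known from oxidative fibres, was near the floor of the table, with 0.40, 0.33 and 1.75 FPKM in C26 and 0.49, 1.2 and 0.50 FPKM in control muscle. Its log2 fold change of 0.12 (SE 0.44, adjusted p = 0.850) rested on C26 replicate 3 and was -0.31 without it. The ratio Esrrg over Esrra differed by 0.37 on the log2 scale (exact permutation p = 0.5, adjusted p = 0.6).

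Among the PPARs, the receptors of fatty acids, Ppard rose and Ppara was not called. Ppard (Entrez gene 19015), encoding PPARδ, the main PPAR of skeletal muscle, had 17.5, 19.4 and 19.3 FPKM in C26 muscle and 8.89, 8.97 and 9.15 FPKM in control muscle. Both groups were tight, at 18.7 ± 1.07 and 9.0 ± 0.133 FPKM (SD, n = 3). It was upregulated 2.32-fold, a log2 fold change of 1.21 (SE 0.14, 95% CI 0.89 to 1.54, adjusted p = 0.00350), and stayed called with each muscle left out (1.18 to 1.28). Ppara (Entrez gene 19013), encoding PPARα, had 1.28, 1.37 and 2.63 FPKM in C26 and 0.78, 2.26 and 0.61 FPKM in control muscle, with overlap and a log2 fold change of 0.58 (SE 0.42, 95% CI -0.42 to 1.58, adjusted p = 0.310). The log2 ratio Ppard over Ppara was 3.49 ± 0.53 in C26 and 3.14 ± 1.01 in control muscle (SD, n = 3; exact permutation p = 0.7, adjusted p = 0.7).

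The upstream sequence of Ppard is shown for comparison with that of Ppargc1a, since both genes rose. It lies at chr17:28232504-28232753, plus strand (GRCm38.p6, RefSeq start), and its matches to the GC box GGGCGG, the site of Sp1-type factors, are in capitals:
Ppard: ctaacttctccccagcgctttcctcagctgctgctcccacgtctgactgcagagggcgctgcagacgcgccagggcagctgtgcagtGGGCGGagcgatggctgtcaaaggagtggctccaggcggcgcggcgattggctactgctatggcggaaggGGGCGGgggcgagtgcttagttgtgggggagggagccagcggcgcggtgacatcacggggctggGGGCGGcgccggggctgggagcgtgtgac
The 3 matches lie 163, 93 and 29 bases before the start, and 32.7% of all windows hold at least 1 on either strand. Of the 14 starts of the regulators searched, 8 held it, at Esrra, Esrrg, Nrf1, Perm1, Ppara, Ppard and Tfam. Of these genes, Esrra, Esrrg, Perm1, Ppara and Tfam were not called. Ppargc1a had none in its window. Neither window held the FOXO site GTAAACA (3.17% of all windows), the MEF2 core TAAAAATA (2.45%), the glucocorticoid receptor half-site AGAACA (16.1%) or the ERR response element TCAAGGTCA (0.387%). Absence concerns these letters in 250 bases and says nothing of the factors. Starts were searched for 9 of the 10 genes, 14 starts in all, and those of Ppargc1b were left out of the search.

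Rxrg (Entrez gene 20183), encoding RXRγ, the RXR form that is high in muscle, had the largest difference of the 10 genes. It had 7.09, 5.52 and 17.4 FPKM in C26 muscle and 50.01, 47.2 and 45.5 FPKM in control muscle. The controls were close together, whereas C26 replicate 3 was well above the other C26 muscles, and the means were 9.99 ± 6.44 and 47.6 ± 2.29 FPKM (SD, n = 3). It was downregulated with a log2 fold change of -2.14 (SE 0.42, 95% CI -3.16 to -1.12, adjusted p = 0.0130), which is 4.4-fold. The adjusted p was 0.0554 without C26 replicate 1 and 0.0524 without control replicate 1, with log2 fold changes of -1.98 and -2.12. Rxrg over Ppara was 2.47, 2.01 and 2.72 on the log2 scale in C26 and 6.0, 4.39 and 6.22 in control muscle, a difference of -3.13 without overlap (exact permutation p = 0.1, adjusted p = 0.15).

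RefSeq gives 2 starts for Rxrg. The second one is shown because its window holds the nuclear receptor half-site AGGTCA, in capitals, of the kind that RXR partners bind, and the first does not (chr1:167618015-167618264, plus strand, GRCm38.p6):
Rxrg: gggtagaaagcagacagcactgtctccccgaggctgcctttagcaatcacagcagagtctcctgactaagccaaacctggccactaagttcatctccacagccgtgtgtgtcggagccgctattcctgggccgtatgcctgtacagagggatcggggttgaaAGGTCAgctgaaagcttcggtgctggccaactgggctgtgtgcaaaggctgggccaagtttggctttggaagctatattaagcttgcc
The match is 88 bases before the start, and the half-site occurs on either strand in 14.0% of all windows. Of the 14 starts searched, which leave out Ppargc1b, it was also found at that of Perm1. The files do not separate transcripts by start, so that the fall of Rxrg cannot be assigned to either.

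Nrf1 (Entrez gene 18181) encodes the nuclear respiratory factor and not the unrelated NFE2L1, which shares the name. It had 13.1, 13.4 and 6.56 FPKM in C26 muscle and 4.23, 3.65 and 5.91 FPKM in control muscle. The groups were separated only narrowly, between C26 replicate 3 and control replicate 3. It was upregulated 2.5-fold, a log2 fold change of 1.32 (SE 0.27, 95% CI 0.67 to 1.97, adjusted p = 0.0142). The adjusted p was 0.0582 without C26 replicate 1, 0.0505 without C26 replicate 2 and 0.0586 without control replicate 1. Tfam (Entrez gene 21780) had 13.5, 13.6 and 16.6 FPKM in C26 and 15.9, 16.4 and 17.6 FPKM in control muscle, which overlapped. Its log2 fold change of 0.02 (SE 0.16, 95% CI -0.38 to 0.41, adjusted p = 0.939) took either sign with the scaling, with -0.19 on the FPKM as deposited, and the interval excludes a change as large as that of Nrf1. Tfam over Nrf1 was 1.91, 2.17 and 1.57 in control and 0.034, 0.021 and 1.34 in C26 muscle on the log2 scale. The groups did not overlap, and the difference of -1.42 did not pass the test (exact permutation p = 0.1, adjusted p = 0.15). The NRF1 core GCATGCGC, in 2.26% of all windows, was found upstream of Esrra and Ppara and not of Tfam.

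**Figure D2:**
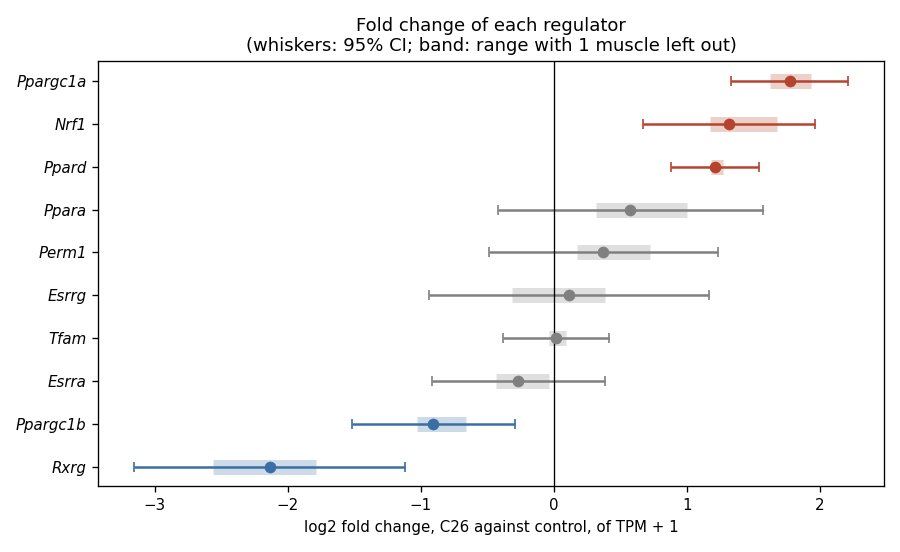
Log2 fold change of each regulator, C26 against control, from limma on log2(TPM + 1). Points are estimates, whiskers the 95% confidence interval and pale bands the range with 1 muscle left out; red and blue mark genes called higher and lower. Ppargc1a, Nrf1 and Ppard lie at 1.77, 1.32 and 1.21, and Ppargc1b and Rxrg at -0.91 and -2.14.

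**Figure D3:**
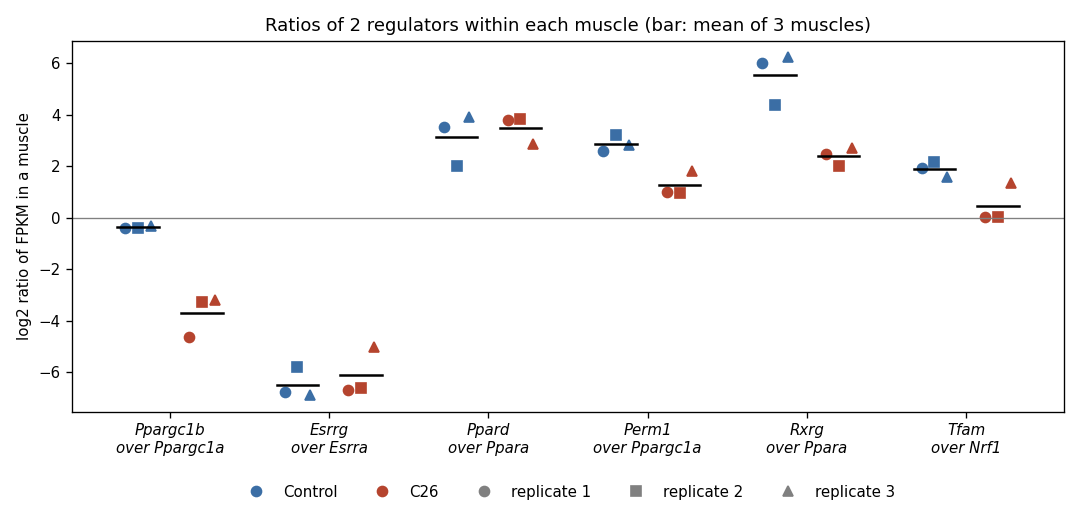
Log2 ratio of the FPKM of 2 regulators within each muscle, for the 6 pairs, with control muscles in blue, C26 muscles in red and bars at the mean of 3. Ppargc1b over Ppargc1a had a mean of -0.36 in control and -3.71 in C26 muscle, and 4 of the 6 ratios kept the groups apart.

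The 10 genes were also put in order by level. FPKM is per length of transcript, so that levels of different genes can be set side by side, though only as means of 3 muscles. In control muscle the order was Esrra (59.6 FPKM), Rxrg (47.6), Perm1 (22.6), Tfam (16.6), Ppard (9.0), Nrf1 (4.6), Ppargc1a (3.01), Ppargc1b (2.34), Ppara (1.22) and Esrrg (0.73). Neighbours overlapped from Perm1 to Tfam and at each step from Ppargc1a down to Esrrg, and the other neighbours did not. In C26 muscle it was Esrra (43.5), Perm1 (24.9), Ppard (18.7), Tfam (14.6), Nrf1 (11.03), Ppargc1a (10.2), Rxrg (9.99), Ppara (1.76), Ppargc1b (0.843) and Esrrg (0.827). Here Esrra and Perm1, Nrf1 and Ppargc1a, Ppargc1a and Rxrg, and Ppargc1b and Esrrg overlapped. Rxrg was thus the second in control and the seventh in C26 muscle, and Ppard was below Tfam in the former and above it in the latter.

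The genes around these regulators were read from lists of known partners, upstream factors and targets in the same fit, in which the 13363 genes had a median of -0.05. Of 23 partners and co-repressors, 9 were upregulated and 1 was downregulated (median log2 fold change 0.39), which is 39.1% and 4.35% against 19.4% and 14.5% of all genes. Lpin1, which encodes lipin 1, a partner of PGC-1α and PPARα, had 85.2, 82.8 and 61.0 FPKM in C26 and 20.5, 26.2 and 13.5 FPKM in control muscle (4.41-fold, adjusted p = 0.00554). Rxra, encoding the RXR form found in most tissues, rose 2.21-fold (adjusted p = 0.0118), from 26.7 to 38.6 FPKM in control to 54.5 to 72.3 FPKM in C26 muscle, while Rxrg fell. Yy1, a factor that joins PGC-1α to mitochondrial genes, rose 2.2-fold (adjusted p = 0.00790). Pprc1, the third member of the PGC-1 family, rose 2.02-fold (adjusted p = 0.00900), with 6.02, 6.58 and 4.74 FPKM against 2.5, 2.66 and 3.90. Gabpb2, a subunit of NRF2, was the one gene downregulated, by a log2 fold change of -0.62 (adjusted p = 0.0414). Without C26 replicate 1, C26 replicate 2 or control replicate 1 the number upregulated was 4, 5 and 5, when 8.46%, 11.4% and 8.62% of all genes were, and Gabpb2 was then not called. Its call was also lost on TPM without TMM factors, after quantile normalization, with scaling without the 20 most abundant genes, with an intensity trend in the prior variance and with the slow fibre genes as a covariate. On the FPKM as deposited 5 of the list were upregulated, and 12.6% of all genes.

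Of 35 genes for kinases, deacetylases and factors that act on PGC-1 or on the transcription of Ppargc1a, 9 were upregulated and 5 downregulated (median log2 fold change 0.09). These are 25.7% and 14.3%, against 19.4% and 14.5% of all genes. Flcn, encoding folliculin, a brake on AMPK and PGC-1α, rose 2.82-fold (adjusted p = 0.00477). Crtc2, a coactivator of CREB, rose 2.37-fold (adjusted p = 0.0152), Mef2a, encoding a muscle transcription factor, 2.30-fold (adjusted p = 0.00588), and Prkaa2, the catalytic AMPK subunit of muscle, 2.24-fold (adjusted p = 0.0258). The falls of 3 genes were larger than these rises. Prkag3, the AMPK subunit of fast glycolytic fibres, had 8.72, 10.6 and 7.96 FPKM in C26 and 86.6, 83.6 and 86.8 FPKM in control muscle, a log2 fold change of -2.95 (adjusted p = 0.000822). Map2k6, a kinase that activates p38, had 0.76, 1.09 and 2.09 against 14.2, 12.4 and 12.7 FPKM (log2 fold change -2.71, adjusted p = 0.00288). Mef2c had 4.48, 3.02 and 24.1 against 45.5, 52.1 and 57.6 FPKM (log2 fold change -2.55, adjusted p = 0.0360), with C26 replicate 3 the highest of the C26 muscles, as for Rxrg. The number upregulated was 4 without C26 replicate 1, C26 replicate 2 or control replicate 1, with the shares of all genes given above. The number downregulated was 2 without C26 replicate 1, C26 replicate 2, control replicate 1 or control replicate 2, when 5.01%, 7.08%, 5.42% and 10.5% of all genes were. It was 3 without control replicate 3 and 8 without C26 replicate 3, against 14.7% and 16.2% of all genes.

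The target lists of the PPARs and of the ERRs differed in how many genes were called. Of 32 PPAR targets of fatty acid use, 14 were upregulated and none was downregulated (43.8% higher, against 19.4% of all genes; median log2 fold change 0.90). At an unadjusted p under 0.05, 18 were higher and 0 lower in limma's fit. Pdk4, the kinase that closes pyruvate dehydrogenase, had 1408, 940 and 1190 FPKM in C26 and 92.4, 123.01 and 57.0 FPKM in control muscle (15.5-fold, adjusted p = 0.00197). Acot2, a mitochondrial acyl-CoA thioesterase, rose 14.6-fold (adjusted p = 0.00190), and Plin5 and Pnpla2, a lipid droplet protein and the lipase of the first step of triglyceride breakdown, rose 6.06-fold and 5.29-fold (adjusted p = 0.0163 and 0.00522). The number upregulated was 8 without C26 replicate 1 or without control replicate 1, when 8.46% and 8.62% of all genes were.

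Of 46 ERR targets of the citric acid cycle and the respiratory chain, 4 were upregulated and none was downregulated (8.70% higher, against 19.4% of all genes; median log2 fold change 0.09), with 6 higher and 0 lower at an unadjusted p under 0.05. Idh2, the NADP-dependent isocitrate dehydrogenase, had 598, 597 and 280 FPKM in C26 and 67.0, 167 and 76.5 FPKM in control muscle (5.65-fold, adjusted p = 0.0108). Ogdh and Dlst, which encode subunits of the oxoglutarate dehydrogenase complex, rose 1.86-fold and 1.81-fold (adjusted p = 0.0345 and 0.0234). The number upregulated was 1 without C26 replicate 1, C26 replicate 2 or control replicate 1, when 8.46%, 11.4% and 8.62% of all genes were. It was 2 without control replicate 3, 1 after quantile normalization and 2 with the mean of the slow fibre genes as a covariate, against 16.7%, 16.8% and 17.8% of all genes. Without C26 replicate 3, 7 ERR targets were called lower, and 16.2% of all genes. A difference between the PPAR and ERR lists was not tested.

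Of 23 genes for the replication and transcription of mitochondrial DNA, where NRF1 and TFAM act, 8 were upregulated and 1 was downregulated (median log2 fold change 0.36), which is 34.8% and 4.35% against 19.4% and 14.5% of all genes. Elac2, the enzyme that trims mitochondrial transfer RNA, rose 2.82-fold (adjusted p = 0.0108), Polg, the DNA polymerase of mitochondria, 2.63-fold (adjusted p = 0.0155), Tfb1m 2.02-fold (adjusted p = 0.0316) and Tfb2m, a transcription factor of mitochondrial DNA, 1.94-fold (adjusted p = 0.0132). Slirp, which stabilises mitochondrial messenger RNA, was downregulated by a log2 fold change of -0.74 (adjusted p = 0.0489). The number upregulated was 1 without C26 replicate 1 or control replicate 1 and 3 without C26 replicate 2, when 8.46%, 8.62% and 11.4% of all genes were. Slirp was not called with any control muscle left out or without C26 replicate 1 or 2, nor with 0.1 in place of 1 added to the TPM or with scaling without the 20 most abundant genes. The 13 transcripts of the mitochondrial genome were not analysed here. None of 12 genes of slow and oxidative fibres was called by limma, and 0 had an unadjusted p under 0.05 (median log2 fold change -0.17). Without C26 replicate 3, 1 of them was called lower.

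**Figure D4:**
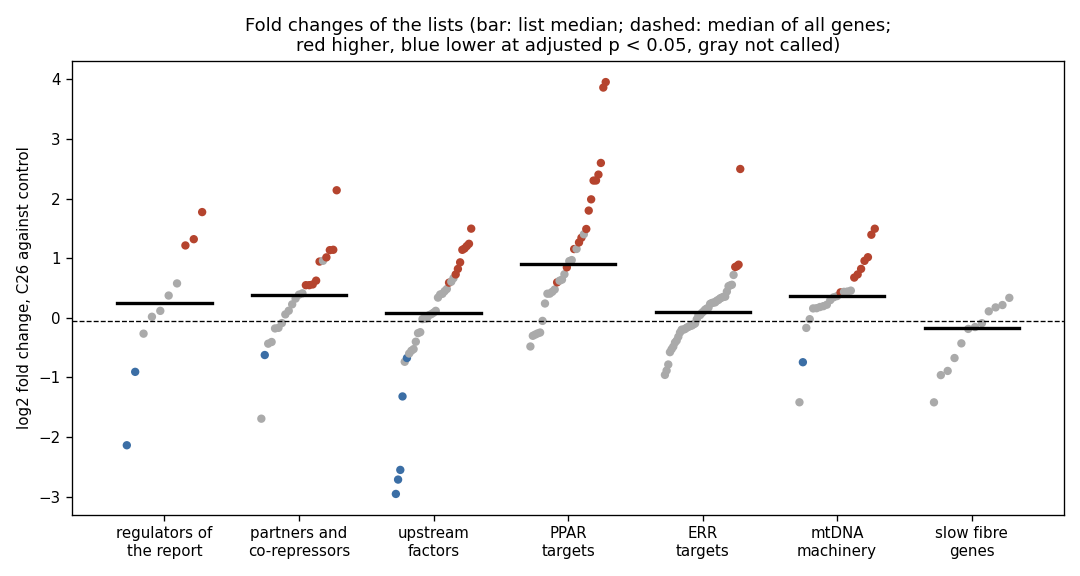
Log2 fold change of each gene, C26 against control, for the 10 regulators and 6 lists of related genes. Each point is a gene, ordered within its list; red and blue mark genes called higher and lower, bars the list medians and the dashed line the median of all genes (-0.05). PPAR targets have a median of 0.90 with 14 of 32 called higher, and ERR targets have a median of 0.09 with 4 of 46 called higher.

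The muscles of a group were not alike in these genes. On the log2(TPM + 1) scale, C26 replicate 3 was the highest C26 muscle and control replicate 2 the highest control muscle for 8 of the 10 regulators; the exceptions were Ppargc1a in C26 muscle and Nrf1 in both groups. The same pair was highest for 42 of the 46 ERR targets (91.3%), 14 of the 32 PPAR targets (43.8%) and 17.1% of all genes. These muscles were picked after their values were seen, so that the counts are a description. They also had the lowest scaling factors of their groups, 0.903 and 0.943, which raises their scaled values. On the FPKM as deposited the pair was highest for 4 of the 10 regulators, 37 of the 46 ERR targets and 7.95% of all genes.

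The deviations from the group mean show which regulators carried this. Control replicate 2 was above the control mean by 0.84 for Ppara, 0.70 for Perm1 and 0.54 for Esrrg on the log2 scale. The ERR targets there were on average 0.38 above the control mean, and the PPAR targets 0.42. C26 replicate 3 was above the C26 mean by 1.01 for Rxrg, 0.93 for Esrrg, 0.57 for Ppara and 0.50 for both Perm1 and Esrra. The ERR targets were there at 0.54 and the PPAR targets at 0.12. Nrf1 went the other way, at -0.56 in C26 replicate 3 and -0.15 in control replicate 2. For Ppargc1a the 3 C26 muscles were within 0.05 of their mean. Slow fibre genes were also high in C26 replicate 3 (1.18 above the group mean) and low in C26 replicate 2 (-1.23), but in control replicate 2 they were below the mean (-0.45). The part of fibre type in these deviations was not tested.

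**Figure D5:**
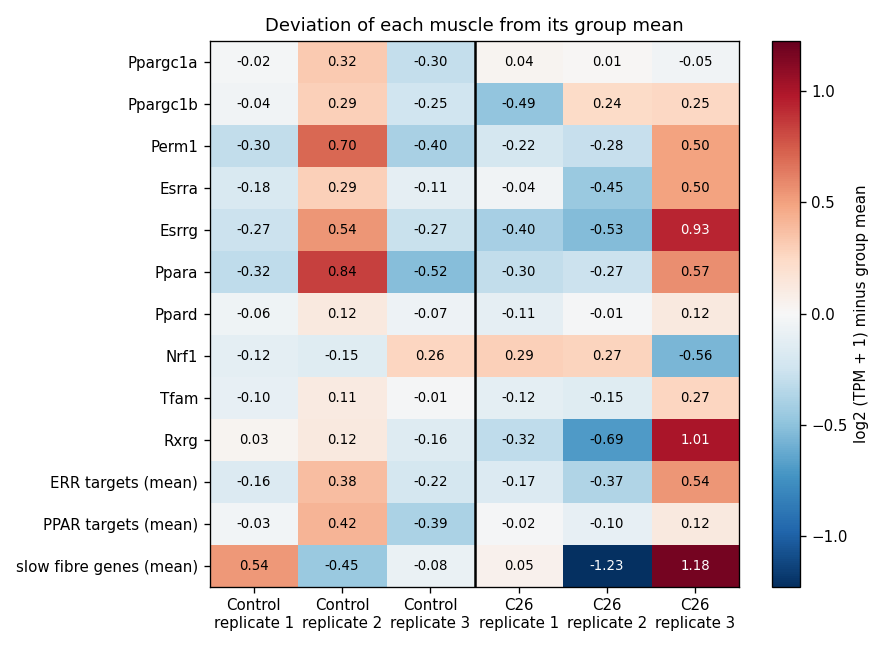
Deviation of each muscle from the mean of its group, in log2(TPM + 1), for the 10 regulators and the means of 3 gene lists. Columns are muscles, and red marks values above and blue values below the group mean. C26 replicate 3 is high for Rxrg (1.01) and Esrrg (0.93) and low for Nrf1 (-0.56), and control replicate 2 is high for Ppara (0.84) and Perm1 (0.70).

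Over the 6 muscles, the genes with the pattern most like that of Ppargc1a were Parl, Ldlrad3 and Slc35f5, and the most opposite were Dap, Slc35c2 and Zfp692. The likeness is Pearson's r of log2(TPM + 1), 0.998 to 0.999 for the first and -0.998 for the latter, taken as the extremes of 13363 genes over 6 points that fall into 2 groups, and is a description only. Slc35f5 had 38.3, 38.9 and 32.9 FPKM in C26 and 5.32, 6.75 and 4.59 FPKM in control muscle, following Ppargc1a in order within the groups as well. Zfp692 had 2.12, 2.28 and 2.12 against 6.20, 4.47 and 6.73 FPKM.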

How the data were processed

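Total RNA of gastrocnemius tissue was depleted of rRNA with RNaseH and read as single ends on a BGISEQ-500. The authors aligned filtered reads with bowtie2 to GRCm38.p5 and obtained FPKM with RSEM; the submitters' processing notes name HISAT2 2.0.4, Bowtie2 2.2.5 and RSEM 1.2.12 and the build mm9, a difference that was not resolved. The deposited FPKM table has 2 decimals and only genes above 0 in all 6 muscles, so that genes silent in 1 group are not in it and the read depth is unknown. FPKM sums were 531061 to 585169 in C26 and 626992 to 688300 in control libraries.

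FPKM were rescaled to TPM (sum 1000000), divided by unweighted TMM factors (trims of 30% and 5%; factors 0.903 to 1.08) and taken as log2(TPM + 1). Fold changes are on that scale and understate low genes. C26 and control were compared with limma 3.58.1 (R 4.3.3), with Benjamini-Hochberg adjustment over 13363 genes. Entrez IDs were named through RefSeq (GRCm38.p6; 13327 matched). Upstream sequences are RefSeq's, cut before the start. Ratios of 2 genes were compared by two-sided exact permutation. P-values measure the spread between these 6 samples. The fit was tested on simulated data.

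Members and lists were chosen with earlier results of these data known. All 10 members were named, and of each list up to 4 genes higher and 3 lower, by size of change, among those called whose groups did not overlap; marker genes were named where they bear on a member. A gene of the ERR list that this rule names is not reported here.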

Additional observations from a re-analysis of the deposited data

How the results depend on the processing

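The counts moved most with the muscles. With 1 muscle left out, 1131 to 3311 genes were higher and 669 to 2160 lower, against 2590 and 1931, and 0 to 2 of the 10 regulators were lower. On the FPKM as deposited 1678 genes were higher and 2504 lower, and the median of all genes was -0.14. With the replicate number as a block, 1236 genes were lower, and 1 regulator was lower, since Ppargc1b was lost (adjusted p = 0.0575). The labels do not pair the muscles by number, and deviations of same-numbered samples correlated at -0.04, -0.08 and -0.11. A shared cage or day was not tested. The block changed no other call among the regulators. In the lists it left 5 of 23 partners and 2 of 46 ERR targets higher, against 13.8% of all genes, and ended the calls of Gabpb2 and Slirp. Quantile normalization and a slow fibre covariate (added after seeing the data; Ppargc1b adjusted p = 0.0572) also left 1 regulator lower. Ppargc1a, Ppard, Nrf1 and Rxrg stayed called in all 10 alternatives that kept every muscle. In these, other signs turned for genes that were not called: Tfam was -0.19 on the FPKM as deposited, -0.26 after quantile normalization and -0.024 with the mean of the ERR targets as a covariate (also added), which gave -0.043 for Esrrg. With 1 muscle left out Tfam ranged from -0.035 to 0.093 and Esrrg from -0.31 to 0.39; other values below 0 were -0.032 for Tfam without control replicate 1, and -0.016 and -0.021 for Esrrg without control replicate 1 and 3. The ratio difference of Esrrg over Esrra ranged from -0.17 to 0.72 and that of Ppard over Ppara from -0.22 to 0.74. The difference for Ppargc1b over Ppargc1a was -2.68 on the TMM-scaled TPM with 1 added to each, a ratio that depends on the scaling. With that covariate 5 of 46 ERR targets and 9 of 35 upstream genes were lower, against 17.0% of all genes. The covariate is the mean of the same ERR targets, so that their count cannot be set against that share. The causes were not tested. Read depth is unknown, so that Ppargc1b, Ppara and Esrrg, near 1 FPKM, have an error from counting that cannot be given.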
